A study of Arabidopsis thaliana with 9 samples.

Results

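PRN (locus AT3G59220, also called PRN1) encodes pirin, a protein of the cupin fold, and was followed across 9 Affymetrix arrays of Arabidopsis leaves. It was chosen by name with its values already known, because it stood among the largest rises after 6 h with BrvC. By symbol or synonym the reference gene table names 2 genes as pirin, and both had 1 probe set listed for that gene alone: PRN on chromosome 3 and PRN2 (PIRIN2, locus AT2G43120) on chromosome 2. They are 2 of 16550 genes with such a row. Annotations not used here may count other genes as pirins, and such genes were not sought. AT3G59260 may be 1 of these. It had a row of its own and is given below only among the chromosome neighbours of PRN. The values of PRN2 took no part in the choice of PRN, so PRN2 was tested and PRN was described without a test.

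The RNA came from detached leaves of ecotype Col-0, aged 30 days by the labels. In the treated groups leaves lay in the dark in medium with 50 µM BrvC, a member of the brevicompanines (fungal alkaloids), for 6 h (3 arrays) or 48 h (3 arrays). The 3 control arrays came from leaves given 0.05% DMSO in the same medium, and the labels do not say how long these were kept in the dark. BrvC and the time in the dark therefore cannot be told apart. Each replicate was a pool of leaves, the labels call the replicates biological, and the number of arrays limits the precision. Values are log2 signals, so a difference of 1 is a 2-fold change.

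Pirins occur from bacteria to plants and mammals, bind a metal ion in a cupin barrel, and in human cells act as nuclear cofactors of transcription. In Arabidopsis, PRN is known as a partner of GPA1, the alpha subunit of the heterotrimeric G protein, and of NF-Y transcription factors that bind CCAAT boxes, with roles in seed germination, early seedling growth and the responses to abscisic acid and blue light. Pirins of several organisms can also break down the flavonol quercetin. PRN2 is known to bind and stabilize the papain-like cysteine protease XCP2.

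PRN was high at 6 h alone. Its log2 signal was 3.03, 2.83 and 3.25 on the control arrays, 7.85, 7.46 and 7.88 at 6 h, and 2.69, 2.93 and 2.92 at 48 h. All 3 arrays at 6 h lay far above the other 6, while the values of control and 48 h overlapped. The lowest array at 6 h was 4.21 above the highest control and 4.53 above the highest array at 48 h, and the values within a group spanned 0.42 in control, 0.42 at 6 h and 0.24 at 48 h. The mean rose from 3.04 ± 0.21 (SD, n = 3) in control to 7.73 ± 0.24 (SD, n = 3) at 6 h and was 2.84 ± 0.13 (SD, n = 3) at 48 h.

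In fold terms, PRN was 25.9-fold higher at 6 h than in control (log2 difference 4.69, SE 0.18) and 29.6-fold lower at 48 h than at 6 h (-4.89, SE 0.18). At 48 h it differed from control by -0.19 (SE 0.18). These 3 differences share arrays with each other and are not independent. The order of the levels was 6 h, then control and 48 h, and the arrays of the last 2 overlapped. As PRN was chosen with its values known, none of these differences was tested. Groups that did not overlap were common: the arrays of 6 h and control were fully separate for 40.3% of all genes, those of 48 h and 6 h for 37.3% and those of 48 h and control for 25.1%.

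**Figure D1:**
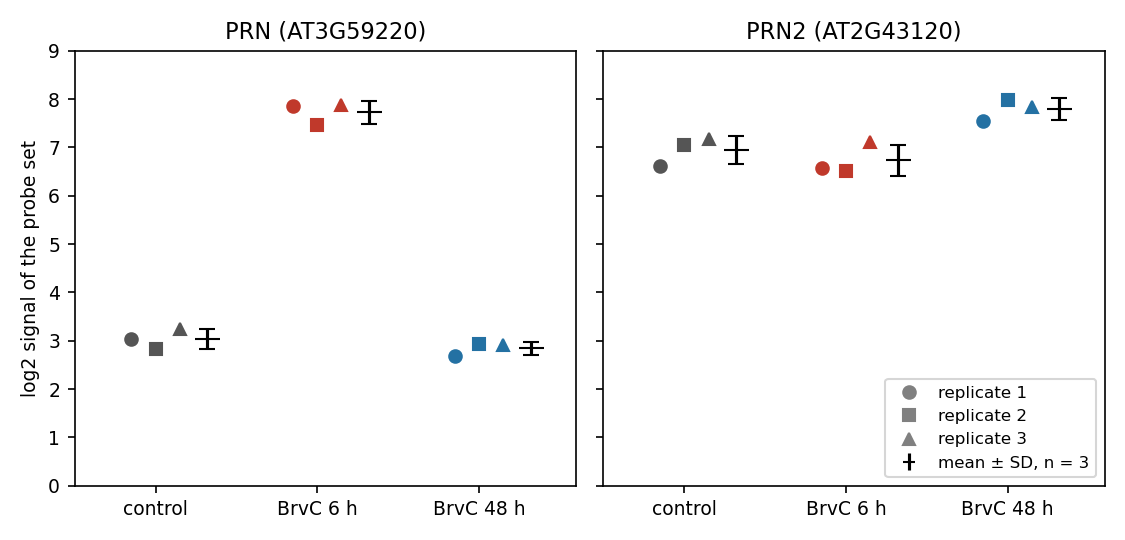
Log2 signal of the probe sets of PRN (left) and PRN2 (right) on each of the 9 arrays, by group, with the mean ± SD of 3 arrays in black. PRN lies between 7.46 and 7.88 at 6 h and below 3.3 on the other 6 arrays, and PRN2 has its highest 3 values at 48 h. Levels of the left and right panels are not compared with each other.

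Ranked by difference from control at 6 h, PRN stood at place 2 of 16550 from the top. The row above it was AT4G20970 (4.85, SE 0.21) and the rows below were AT1G66940 (4.46), AT3G50340 (4.39) and AT3G29970 (4.38), which carry a locus name alone in the reference table. Counting falls as well, PRN was at place 5 by the size of the difference. Among the 1762 genes with a symbol in that table it was at place 1. Over all 38408 entries of the value table, named or not, it was at place 12.

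Ranked by difference of 48 h against 6 h, PRN had the lowest value of the 16550 genes. AT4G20970 (-4.59), AT5G55050 (-4.33) and AT4G30650 (-4.30) came next. By size of the difference in either direction PRN was again at place 5, and over all 38408 entries it was at place 3 from the bottom. In the difference of 48 h from control PRN was at place 11047 from the top and 9650 by size. Its position thus ran from the extreme of the list at 6 h to its middle at 48 h.

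**Figure D2:**
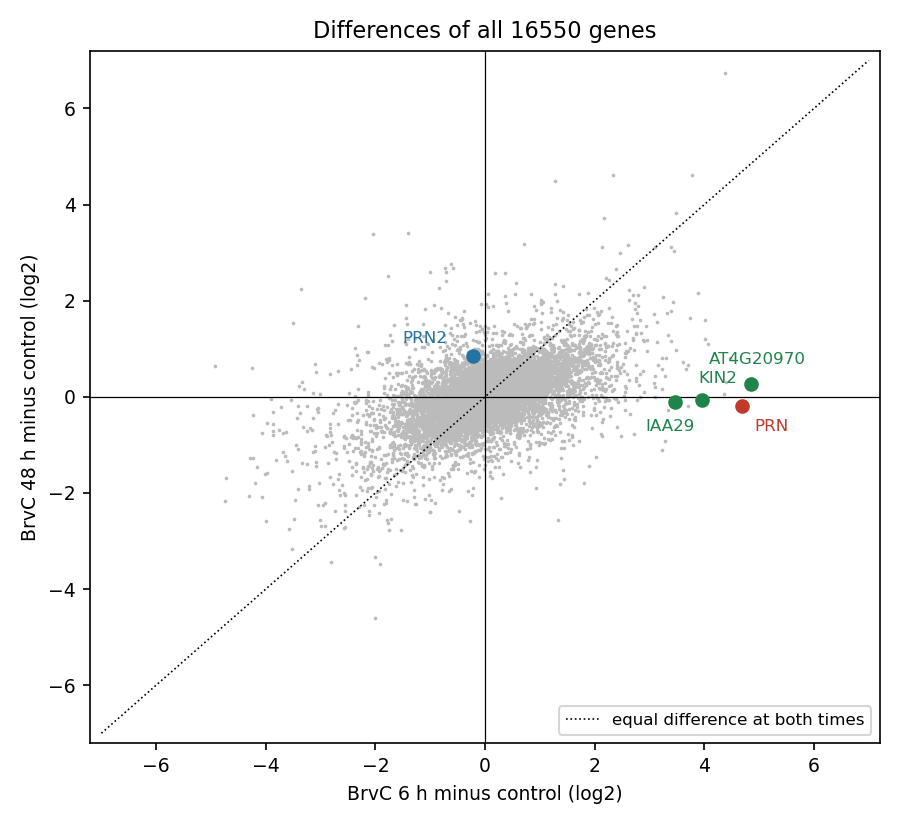
Log2 difference from control at 6 h (horizontal axis) and at 48 h (vertical axis) for all 16550 genes, with PRN, PRN2, KIN2, IAA29 and AT4G20970 marked and a dotted line of equal differences. PRN lies far to the right at 4.69 and close to 0 on the vertical axis at -0.19. The axes share the control arrays.

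Few genes rose as much as PRN at 6 h, and those that rose at least 2-fold were less often within 2-fold of control at 48 h than genes at large. A difference of at least 4 on the log2 scale (16-fold) at 6 h was reached by 10 genes, PRN included, and 6 of these 10 were within 2-fold of control at 48 h. The other 4 were still at least 2-fold higher. One of these was AT3G29970, at place 5 from the top at 6 h, which went on from 7.17 ± 0.31 (SD, n = 3) at 6 h to 9.53 ± 0.42 (SD, n = 3) at 48 h. With a lower bound of 8-fold at 6 h the share within 2-fold of control at 48 h was 25 of 46 (54.3%), and with 4-fold it was 147 of 239 (61.5%). With a lower bound of 2-fold there were 1249 genes, of which 1021 (81.7%) were within 2-fold of control at 48 h, 217 were still higher and 11 were lower. Over all genes a 2-fold difference at 48 h was rare. The antenna gene LHCB4.2, just within 2-fold of control at -0.999, was at place 838 of 16550 by size of that difference. Being within 2-fold of control at 48 h was thus not particular to the genes that rose at 6 h.

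PRN2 had another time course, with its highest values at 48 h. Its log2 signal was 6.62, 7.05 and 7.17 in control, 6.57, 6.52 and 7.10 at 6 h, and 7.56, 7.99 and 7.84 at 48 h. The arrays at 48 h lay above all others, and those of control and 6 h overlapped. The group means were 6.95 ± 0.29, 6.73 ± 0.32 and 7.80 ± 0.22 (SD, n = 3 each).

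At 48 h PRN2 rose 1.80-fold over control (log2 difference 0.85, SE 0.21, 95% interval 0.39 to 1.31, limma adjusted p = 0.0211). In this comparison limma called 10.6% of all genes, with 5.43% higher. That call was lost without control replicate 1 (0.69, adjusted p = 0.0826), without replicate 2 at 48 h (0.75, adjusted p = 0.0883) or without replicate 3 at 48 h (0.83, adjusted p = 0.0599). At 6 h PRN2 differed from control by -0.21 (SE 0.21, 95% interval -0.68 to 0.25, limma adjusted p = 0.507). It passed the test at 6 h, as lower, and missed it at 48 h when arrays were centred on the median of all entries (-0.57, adjusted p = 0.0409, and 0.65, adjusted p = 0.0608). Between the times PRN2 was 2.09-fold higher at 48 h than at 6 h (1.06, SE 0.21, 95% interval 0.60 to 1.53, limma adjusted p = 0.00287), where 20.3% of all genes were called and 9.62% were higher. That call was kept without each array in turn, with adjusted p from 0.00205 to 0.0188.

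The highest values of PRN thus fell at 6 h and those of PRN2 at 48 h. From 6 h to 48 h the log2 signal of PRN changed by -4.89 and that of PRN2 by 1.06. The difference between these changes was not tested, because PRN was chosen for its own. In bulk leaf RNA, a change in the RNA of a gene per cell and a change in the share of the cells that express it cannot be told apart.

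Genes with a pattern like that of PRN were sought by Pearson correlation over the 9 arrays, as a description. The arrays fall into 3 groups, so a high correlation says mainly that a gene was high at 6 h and alike in control and at 48 h. Of the 16549 other genes 235 (1.42%) had a correlation of at least 0.95 and 53 (0.32%) of at least 0.98. A correlation of -0.95 or lower was found for 185 genes (1.12%).

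The highest correlation was that of AT1G10585 (0.998), with signals of 3.53, 3.62 and 4.04 in control, 7.93, 7.54 and 7.83 at 6 h, and 3.64, 3.79 and 3.56 at 48 h. Its values at 6 h stood clear of the rest, and it had the same low replicate 2 at 6 h as PRN. Such likeness follows from its choice by correlation over these arrays. Next came AT5G50915 (0.996), AT5G50000 (0.995), AT2G38010 (0.994), AT4G30650 (0.994), AT3G50340 (0.993), AT3G62630 (0.993) and IAA29 (0.993). The size of the rise was not alike in these genes: AT5G50000 was only 0.56 higher at 6 h than in control, whereas AT3G50340 was 4.39 and AT4G30650 4.36 higher. Which genes led this list depended on single arrays, and with Spearman correlation in place of Pearson correlation 0 of the 8 were shared.

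Among genes with a symbol, IAA29 had the pattern most like that of PRN by correlation. IAA29 encodes a repressor of auxin responses, and its signals were 2.39, 2.25 and 2.70 in control, 5.83, 6.03 and 5.85 at 6 h, and 2.50, 2.11 and 2.42 at 48 h. The arrays at 6 h were again separate from the other 6, which follows from the choice of IAA29 by correlation. It was followed by rpoC2 of the plastid RNA polymerase (0.991), the cellulose synthase-like genes' member ATCSLC08 (0.991), the beta-tubulin TUB5 (0.990), Fes1B (0.989), TRM25 (0.988), the glycosyl hydrolase GH9B7 (0.988) and the cold-induced KIN2 (0.986). Their differences from control at 6 h ran from 1.03 in ATCSLC08 to 3.96 in KIN2, and at 48 h from -0.18 to -0.03.

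By the root mean square difference over the arrays, which also takes the size of the rise into account, KIN2 was the closest gene with a symbol (0.53 on the log2 scale). KIN2 had 5.35, 6.27 and 6.28 in control, 9.86, 9.52 and 10.41 at 6 h, and 5.89, 5.79 and 6.04 at 48 h. That KIN2 was high on the same 3 arrays as PRN follows from its choice by this measure. IAA29 (0.75), LTI30 (0.99), CSLC5 (1.12), the nitrate transporter NRT2.5 (1.14), the calmodulin-binding IQD22 (1.17), DRT100 (1.18) and CRR42 (1.24) followed. LTI30, a dehydrin of the cold and drought response, had 1.65, 1.94 and 2.33 in control, 5.05, 5.30 and 5.26 at 6 h, and 2.72, 2.45 and 2.51 at 48 h, so that all its values at 48 h lay above those of control. NRT2.5 kept more of its rise, with a difference from control of 4.01 at 6 h and 1.59 at 48 h.

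**Figure D3:**
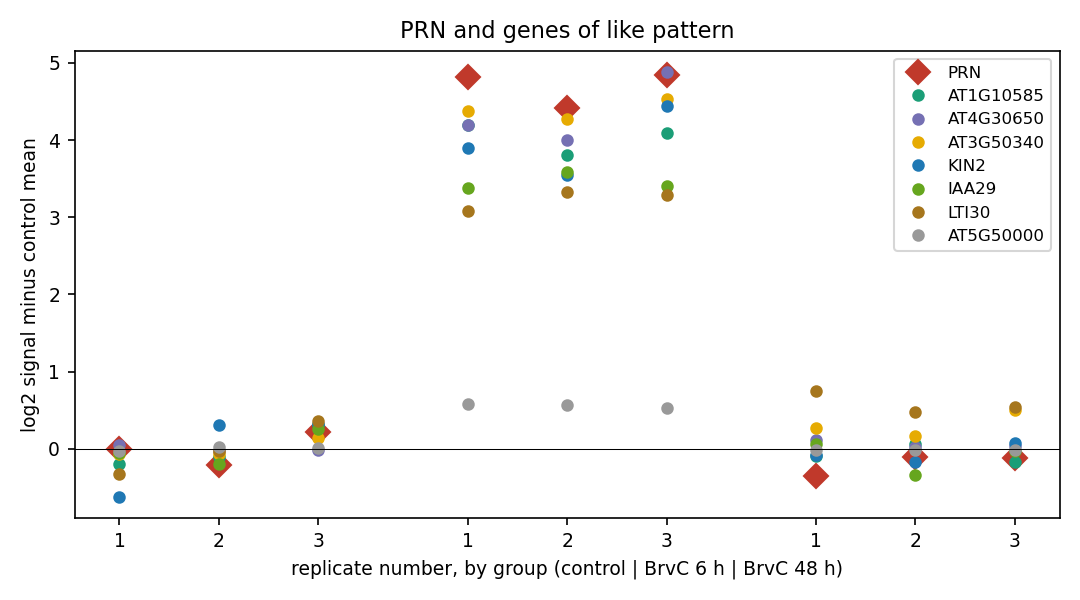
Log2 signal minus the gene's own control mean on each of the 9 arrays, for PRN (diamonds) and 7 genes of like pattern. PRN, AT1G10585, AT4G30650, AT3G50340, KIN2, IAA29 and LTI30 stand at 3 or more at 6 h and near 0 in control, while AT5G50000 has the same pattern at a difference of 0.56.

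Genes beside PRN on chromosome 3 were examined in the order of the reference table (assembly TAIR10.1). The 5 nearest genes with a row of their own on each side spanned 12 protein-coding genes with PRN, and none of the 10 was higher than control at 6 h by limma. Of these 10 neighbours 2 were lower at 6 h, where 27.4% of all genes were called and 13.2% were lower. They were the genes directly before and after PRN. AT3G59210 had 5.30 to 5.62 in control, 4.97, 5.02 and 4.80 at 6 h, and 6.07, 5.98 and 5.74 at 48 h, so that its 6 h arrays were the lowest where those of PRN were the highest. It differed by -0.57 at 6 h (SE 0.17, limma adjusted p = 0.0232) and by 0.998 at 48 h against 6 h (SE 0.17, adjusted p = 0.000911).

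The 6 h call of AT3G59210 was lost without control replicate 1 (-0.52, adjusted p = 0.0706), without control replicate 3 (-0.53, adjusted p = 0.0574) and without replicate 1 (-0.59, adjusted p = 0.0604) or 3 (-0.51, adjusted p = 0.0875) at 6 h. AT3G59230 had 2.97, 2.63 and 2.87 in control, 2.18, 2.12 and 1.93 at 6 h, and 2.21, 2.18 and 2.58 at 48 h. Its 6 h values lay below all controls, by -0.75 in the mean (SE 0.18, adjusted p = 0.0064). The other 8 neighbours had differences from -0.34 to 0.23 at 6 h. Among these was AT3G59260, which other annotations may count as a pirin. It had -0.23 at 6 h (limma adjusted p = 0.535) and -0.12 at 48 h (adjusted p = 0.811). None of the 10 passed the test at 48 h against control, where 10.6% of all genes were called. With arrays centred on the median of all entries 4 of the 10 were lower at 6 h and 1 at 48 h. Lower calls were common over all genes with that scaling, at 6868 of 16550 genes at 6 h and 1700 at 48 h.

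**Figure D4:**
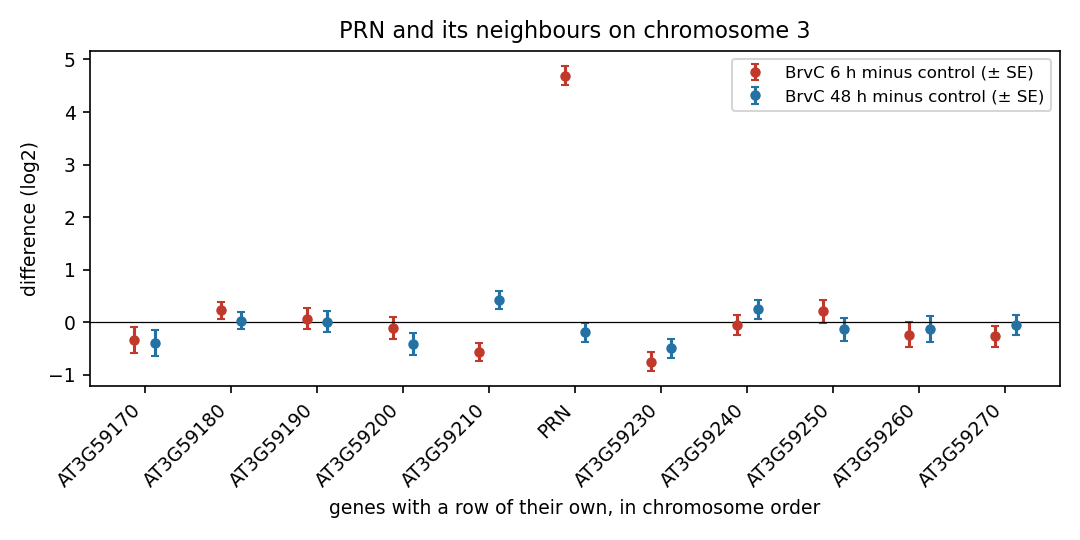
Log2 difference from control at 6 h and at 48 h, with the SE of the fit, for PRN and the 5 nearest genes with a row of their own on each side, in chromosome order. PRN alone lies above 4 at 6 h, and its neighbours lie between -0.75 and 0.42 at both times.

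The genes that pirins are known to act with were mostly not covered by rows of 1 gene. Of 13 genes for G protein subunits and NF-Y factors 0 had such a row, and of 5 papain-like cysteine proteases 0 had one, so these partners were not analysed here. Of the flavonol pathway, which makes and modifies quercetin, 3 of 12 genes were measured. DFR, which takes dihydroflavonols toward anthocyanins, rose at 6 h (0.67, SE 0.18, limma adjusted p = 0.0125), where 14.2% of all genes were called higher. Its signals were 2.74, 3.01 and 2.54 in control, 3.33, 3.67 and 3.30 at 6 h, and 2.79, 2.67 and 2.63 at 48 h. All 3 arrays at 6 h were above the other 6, but the call was lost without replicate 2 at 6 h (0.56, adjusted p = 0.0686) and with arrays centred on the median of all entries (0.31, adjusted p = 0.192). The flavonol glycosyltransferases UGT78D1 (-0.77, adjusted p = 0.0626) and UGT78D2 (-0.43, adjusted p = 0.325) did not pass limma's test at 6 h. None of the 3 did at 48 h against control, where 10.6% of all genes were called. UGT78D1 passed the test at 6 h with arrays centred on the median of all entries (-1.13, adjusted p = 0.00459). It also passed without control replicate 1 (-1.07, adjusted p = 0.0126) and with a replicate block over all 9 arrays (adjusted p = 0.0138).

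Of 21 other cupin genes 3 were measured, and 0 of these 3 rose by limma, where 14.2% of all genes were called higher at 6 h and 5.43% at 48 h. Lower calls made up 13.2% at 6 h and 5.22% at 48 h. PAP85, a vicilin-like seed storage cupin, fell at both times, from 6.59 ± 0.12 (SD, n = 3) in control to 4.04 ± 0.34 at 6 h and 4.21 ± 0.54 at 48 h (limma adjusted p = 7.34e-06 and 6.27e-05). The acireductone dioxygenases ARD2 (ATARD2 in the reference table, -0.01 at 6 h and 0.59 at 48 h) and ARD4 (-0.38 and -0.22) did not pass the test at either time, but with arrays centred on the median of all entries ARD4 did at 6 h (-0.74, adjusted p = 0.021).

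Of 17 abscisic acid response genes 5 were measured. At 6 h 2 of these rose and 1 fell by limma, with a median difference of 0.56 against -0.10 over all genes, and 14.2% of all genes were called higher. KIN2 and COR15A, a chloroplast protein of cold-treated leaves, were the 2 that rose. COR15A had 2.76, 3.27 and 4.52 in control, 6.41, 5.58 and 6.25 at 6 h, and 3.20, 3.73 and 4.28 at 48 h. Its spread in control was wide, yet the arrays at 6 h lay above the other 6 (2.56, SE 0.39, limma adjusted p = 0.000256).

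COR47, a dehydrin, moved the other way at 6 h (-0.75, SE 0.17, adjusted p = 0.00481). KIN1, a close copy of KIN2, had 0.03 (adjusted p = 0.951), and COR15B, a close copy of COR15A, had 0.56 (adjusted p = 0.0874). At 48 h against control, where 10.6% of all genes were called, none of the 5 passed the test. COR47 did with arrays centred on the median of all entries (-0.63, adjusted p = 0.0386). From 6 h to 48 h 3 of the 5 were lower, where 10.7% of all genes were called lower: KIN2, COR15A and COR15B (-0.75, adjusted p = 0.0338). The call of COR15B was lost without any 1 of 4 arrays (replicate 2 or 3 at 6 h, replicate 1 or 2 at 48 h), with differences from -0.62 to -0.74 there. Close copies can share probes, so the values of these pairs are uncertain.

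Antenna proteins of photosystem II are encoded by LHCB genes, some of which are known targets of the pathway of GPA1, PRN and NF-Y in seedlings. Of 13 such genes 3 were measured, and all 3 fell at 6 h, when PRN was high, where 13.2% of all genes were called lower. A link between the levels of these genes and PRN was not tested. LHCB1.5 (LHB1B2 in the reference table) had 9.99, 10.50 and 10.27 in control, 9.02, 8.76 and 9.14 at 6 h, and 8.00, 8.31 and 7.75 at 48 h, without overlap between the groups. It differed from control by -1.28 at 6 h (SE 0.20, limma adjusted p = 0.000298) and by -2.23 at 48 h (adjusted p = 1.44e-05). LHCB4.1 differed by -1.27 (adjusted p = 0.000651) and LHCB4.2 by -1.55 (adjusted p = 0.000327) at 6 h.

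At 48 h, when the values of PRN overlapped those of control, LHCB4.2 was also lower (-0.999, limma adjusted p = 0.0185), where 5.22% of all genes were called lower. LHCB4.1 had -0.68 (adjusted p = 0.0658), a miss that depended on the fit. It passed with a replicate block in the fit to control and 48 h (adjusted p = 0.025) or to all 9 arrays (0.0361). It also passed with an intensity trend (0.0479), with arrays centred on the median of all entries (0.0128) and without control replicate 1 (0.025). Among genes at or above the median level its adjusted p was 0.0419. The call of LHCB4.2 was lost without control replicate 3 (-0.80, adjusted p = 0.0509) and without replicate 1 (-0.76, adjusted p = 0.0837) or 2 (-0.99, adjusted p = 0.0615) at 48 h. Over the 3 antenna genes the median difference was -1.28 at 6 h and -0.999 at 48 h, against -0.10 and -0.06 over all genes.

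**Figure D5:**
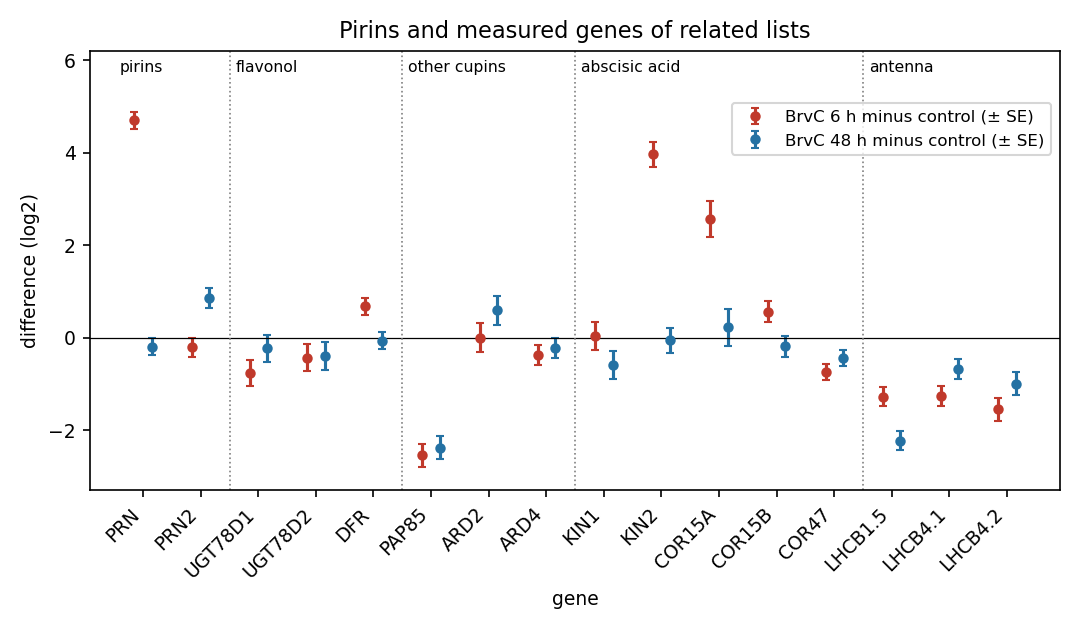
Log2 difference from control at 6 h and at 48 h, with the SE of the fit, for PRN, PRN2 and the measured genes of the flavonol, other cupin, abscisic acid and antenna lists. KIN2 at 3.96 comes nearest to PRN at 4.69, PAP85 lies below -2 at both times, and the 3 antenna genes lie below 0.

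The leaf label and the arrays were also checked. Of 12 leaf markers 4 were measured (RCA, PRK, SBPASE and HPR), and their log2 signals ran from 5.38 to 10.1 in control, 6.31 to 9.45 at 6 h and 3.91 to 8.63 at 48 h. Pollen markers were measured in 2 of 4 cases and lay at 2.16 or below on every array, and of 10 seed and 8 root markers 0 were measured. The summed linear signal of the leaf markers was 1563 to 2006 in control, 1144 to 1364 at 6 h and 463 to 608 at 48 h, and its part in the differences given here was not tested. RCA (-0.58) and HPR (-1.01) fell at 6 h, while SBPASE of the Calvin cycle rose (1.58, limma adjusted p = 0.000156) and PRK had 0.30 (adjusted p = 0.326). Over all genes 13.2% were called lower and 14.2% higher at 6 h. All 4 markers fell by limma at 48 h against control, where 5.22% of all genes were called lower. Arrays of a group correlated at 0.978 to 0.993. The array medians over the genes tested were 3.80 to 3.85 in control, 3.83 to 3.87 at 6 h and 3.80 to 3.82 at 48 h, so that those of 6 h and 48 h did not overlap. Over all entries of the value table they were 3.80 to 3.93 in control, 4.17 to 4.25 at 6 h and 4.00, 4.03 and 4.1 at 48 h. Centring the arrays on these medians of all entries, a scaling added after the data were seen, moved every difference by -0.36 at 6 h, -0.20 at 48 h and 0.16 for 48 h against 6 h. PRN was then 4.33 higher than control at 6 h, still at place 2, and -0.39 from it at 48 h. The split of calls over all genes moved from 2351 higher and 2180 lower to 1440 and 6868 at 6 h, from 898 and 864 to 510 and 1700 at 48 h, and from 1592 and 1764 to 2445 and 1258 between the times.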

How the data were processed

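The authors deposited log2 values per probe set for 9 arrays. Tools listed in the submitters' processing notes are oligo, RMA and limma, with no version. RMA adjusts background, normalizes by quantiles and summarizes probes, which compresses differences of low signals. The array annotation and genome build of the authors are not given in the sources used here. Of 38408 entries 16722 were paired with 1 gene, 759 with several and 20927 were not listed. For 146 genes the entry of highest mean was kept, which left 16550 genes. Names came from RefSeq (assembly TAIR10.1), where 16411 genes were found.

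Group means were estimated from the 9 arrays in 1 linear model (limma 3.58.1, R 4.3.3, lmFit and eBayes, two-sided), which was tested on simulated data. P-values were adjusted by Benjamini-Hochberg across the 16550 genes of a comparison, with a threshold of 0.05. The members and lists were chosen with earlier results of these data known. PRN was given no test. Genes named were the pirins, the 8 most like PRN by each measure, 5 neighbours per side in chromosome order and up to 3 in rank, and the measured list members. AT3G29970 was also followed to 48 h after its values were seen. Same-numbered arrays of control and 48 h deviated together from their group means (correlations 0.302, 0.242 and 0.539), which pairs them as a property of the data, while those of control and 6 h (0.034, -0.032 and 0.012) and of 6 h and 48 h (0.102, -0.051 and -0.012) did not. The alternatives were a replicate block, the 2 groups alone, an intensity trend, array weights, renewed normalization, other row sets and leaving out each array, and centring on the median of all entries was added after the data were seen.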

Additional observations from a re-analysis of the deposited data

Results flagged for a closer look

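The difference from control was not alike at 6 h and 48 h for the genes listed in this paragraph. Other genes of the report had like differences at both times, such as PAP85 with -2.55 and -2.38. Leaf markers and genes chosen only for likeness to PRN or for rank were not listed. For PRN every array at 6 h was above the control mean and every array at 48 h below it, with a difference of -4.89 between the times that was not tested. By limma's test of 48 h against 6 h, PRN2 (AT2G43120) was higher at 48 h by 1.06 and AT3G59210, the gene before PRN on the chromosome, by 0.998. Lower at 48 h were KIN2 (-4.02), COR15A (-2.34), LHCB1.5 (LHB1B2, -0.95), COR15B (-0.75) and DFR (-0.74). The antenna genes LHCB4.1 (0.58, limma adjusted p = 0.08) and LHCB4.2 (0.55, adjusted p = 0.144) moved the other way between the times and did not pass the test.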

How the results depend on the processing

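The difference of PRN ranged from 4.33 to 4.85 at 6 h (4.59 to 4.83 without single arrays), from -0.39 to -0.07 at 48 h and from -5.02 to -4.72 for 48 h against 6 h over 20 alternatives each. The 4.33 came with arrays centred on the median of all entries, which shifts all genes alike, gave 8308 calls at 6 h, and for PRN2 gave -0.57 at 6 h (past the test) and 0.65 at 48 h (not past it). The place of PRN at 6 h, 2 in the fit to the named genes, was 12 over all entries of the value table and 1 among the 8275 genes at or above the median level, and 1 to 2 without single arrays. For 48 h against 6 h the place of PRN was 3 over all entries and 1 otherwise. Calls over all entries numbered 10484 at 6 h, 3824 at 48 h and 6075 between the times, against 4531, 1762 and 3356 over the named genes, since more entries were tested. PRN2 at 48 h ranged from 0.69 to 0.97 (adjusted p 0.0162 to 0.0883) without single arrays and kept its call in 10 of the 11 other alternatives. With a replicate block in the 2 groups alone, its adjusted p was 0.00861, and that of LHCB4.1 at 48 h passed the test. Against the fit to all 9 arrays without a block, no other call between control and 48 h changed among the chromosome neighbours and the list members other than markers. Leaf and pollen markers and genes named only for likeness to PRN or for rank were not followed through the alternatives. In the 2 groups alone LHCB4.2 at 48 h missed the test without the block (adjusted p = 0.0519) and passed with it. Over all genes the calls between control and 48 h numbered 2312 with the block and 1256 without it in the 2 groups alone, and 2134 and 1762 with all 9 arrays. In the groups that share only a number, the block ended the 6 h call of AT3G59210 (adjusted p = 0.0594). It brought UGT78D1 past the test at 6 h, as lower (-0.77, adjusted p = 0.0325), and between the times, as higher at 48 h (0.54, adjusted p = 0.0475). With all 9 arrays it also brought LHCB4.1 (0.58, adjusted p = 0.0456) and LHCB4.2 (0.55, adjusted p = 0.0477) past the test between the times, as higher at 48 h. In the 2 groups alone LHCB4.1 between the times passed without the block (0.0265) and with it (0.0398). Over 24 other genes, 1351 of 1398 values kept their direction and side of the threshold, 19 lost and 28 gained a call, and 0 reversed. DFR between the times was lost without replicate 2 at 6 h (-0.62, adjusted p = 0.0577), LHCB4.2 at 48 h in the 2 groups alone (0.0519), and COR15B between the times over all entries (0.073). COR15B at 6 h passed after renewed quantile normalization (0.71, adjusted p = 0.0176) and without control replicate 2 or replicate 1 at 6 h. The cause of these changes was not tested. Of the 8 genes most like PRN by correlation, 3 to 7 were kept without single arrays, 4 by root mean square difference and 0 by Spearman correlation. The planned search of promoter windows was not run. Low signals, such as that of PRN in control, have no detection call in the table.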
